A study of Mus musculus with 12 samples.

Results

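Mouse T helper 17 (Th17) cells grown with ILA were compared with Th17 cells grown with vehicle, 3 libraries against 3 of the 12 in the series. The genes described are those with a group mean of at least 1 FPKM (fragments per kilobase of exon, scaled to the mapped reads of the library) with ILA or with vehicle, 13256 of the 29522 genes listed. The labels give only the abbreviation ILA, taken in this text to mean indole-3-lactic acid, which bacteria make from tryptophan. The ILA group received ILA at 200 uM and the vehicle group neither ILA nor inhibitor. A second pair of groups, also 3 libraries each, received GSK805 at 0.5 uM without ILA, or both agents at those doses; GSK805 is a small-molecule inhibitor of Th17 differentiation. All groups share 1 source: naive CD4+ T cells, taken with magnetic beads from spleens of wild-type C57BL/6J mice, kept in RPMI 1640 with CytoBox Th17 and stimulated with a CD3/CD28 cocktail. The age, sex and number of the mice and the time in culture are not given, and p-values reflect only the spread between cultures called biological replicates. At the lower edge of the gene set, Cacna1a (1.00 FPKM with vehicle, 0.987 with ILA) lay just inside and Gbp5 (0.35 and 0.999) just outside.

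Th17 cells defend mucosal surfaces by secreting IL-17A, IL-17F and IL-22, and factors that include STAT3, BATF, IRF4 and c-Maf set up that programme. Indoles from tryptophan are ligands of the aryl hydrocarbon receptor (AhR), which pairs with ARNT and binds xenobiotic response elements beside genes such as Cyp1a1. A T cell that secretes protein also depends on folding machinery in its endoplasmic reticulum (ER), which ATF6 and XBP1 raise under load, while ATF4 raises amino acid synthesis and transport.

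The libraries of both groups were of like depth, with 20518124 to 22164720 reads recovered from the vehicle files and 17842287 to 21614089 from the ILA files. Between 12256 and 12356 genes reached 1 FPKM in a vehicle library and 12722 to 12810 in an ILA library. All 5 CD4 T cell markers were higher with ILA, with a summed level of 211 to 218 FPKM against 414 to 434. The markers of CD8 T and NK cells summed to 18.2 to 21.5 FPKM with vehicle and 34.2 to 36.9 with ILA, of which Klrd1 rose to 32.2 to 35.1 FPKM from 13.8 to 16.1 while Cd8b1 fell to 0.983 to 1.498 FPKM from 3.47 to 5.003. B cell markers summed to 5.73 to 6.42 and 8.18 to 8.64 FPKM, myeloid markers to 7.95 to 9.78 and 12 to 14, stromal and epithelial markers to 15.3 to 17.3 and 29.6 to 31.4, and gamma delta T cell markers to 0.53 to 1.3 and 0.595 to 0.673. Of the 2 myeloid markers in the gene set Cd68 was higher and Csf1r lower, and of the stromal and epithelial ones Epcam and Pecam1 were both higher. Globin transcripts stood out in ILA replicate 2, where Hbb-bs reached 23.3 FPKM and Hba-a1 18.2; both were at 0 in the other ILA libraries, and the highest value with vehicle was 0.0587 FPKM. The part of these other cell types in the results was not tested, and every list count below was also made without ILA replicate 2. Among counts of 3 or more this moved 1 by over 1.5 times, that of ribosomal proteins called lower, from 17 to 11.

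ILA moved many genes by modest amounts. Of the 13256 genes, 4568 were higher and 3235 lower with ILA (limma on log2(FPKM + 1), adjusted p under 0.05), so that the share called was 58.9% in all, 34.5% upward and 24.4% downward. The median called difference was 1.38-fold. Some genes entered the set through 1 group only, which favours calls toward that group. With vehicle 925 genes were under 1 FPKM, and 578 of them were called higher. With ILA 418 were under 1 FPKM, and 195 of them were called lower. At 2-fold or more, 712 genes (5.37%) were higher and 228 (1.72%) lower, and at 4-fold or more 35 were higher and 28 lower. In 63.7% of the genes no ILA library overlapped a vehicle library. The balance of the directions depended on scaling: 58.5% of calls were upward as deposited, 46.3% after quantile normalization and 41.0% after centring each library on its median gene, which shifts all differences by -0.14 on the log2 scale. List counts below are therefore read against the shares called over all genes. List medians, where given, are read against the median of all genes, 0.07 on the log2 scale. A list whose direction turns with scaling is named as such. All fold changes are ratios of FPKM + 1 and understate the change of genes near 0.

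**Figure D1:**
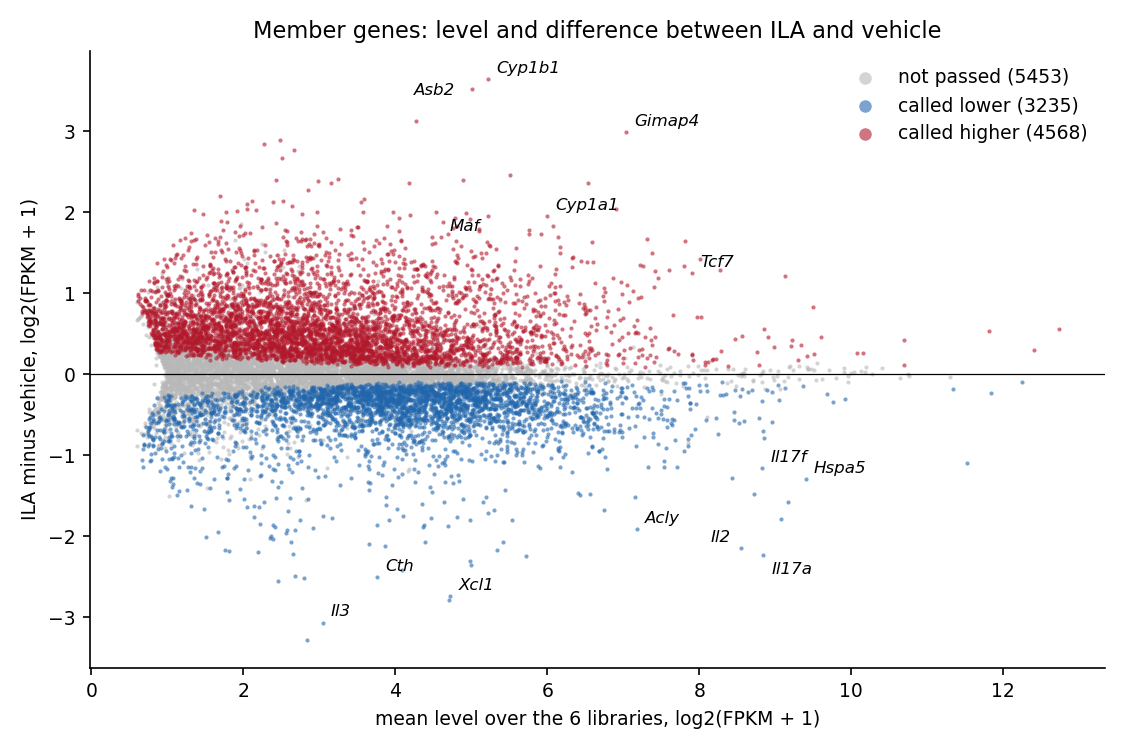
Each point is a gene, with its mean level over the 6 libraries (log2 of FPKM + 1) on the x axis and the difference ILA minus vehicle (log2) on the y axis; colours mark genes called higher, called lower and not passed. Cyp1b1, Asb2 and Gimap4 stand at the top, and Il3, Xcl1 and Cth lie lowest of the genes labelled.

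The AhR pathway showed its largest changes at its target enzymes. Cyp1b1, a cytochrome P450 that oxidizes aromatic compounds, measured 4.05, 4.57 and 4.87 FPKM with vehicle and 73.9, 65.2 and 65.0 FPKM with ILA. The groups were far apart, a 12.6-fold rise (log2 difference 3.65 ± 0.07 SE, limma adjusted p = 8.8e-11). Cyp1a1, its better known relative, measured 22.8, 26.7 and 25.6 FPKM with vehicle and 111, 97.7 and 92.2 FPKM with ILA, again with every ILA library above every vehicle library (3.89-fold higher, limma adjusted p = 9.2e-09). Ahrr, the repressor that the receptor induces against itself, rose from 1.87 to 5.50 FPKM (2.26-fold higher). Tiparp, the other feedback gene and an enzyme often used as a readout of the receptor, did not follow: it measured 72.8, 73.0 and 83.0 FPKM with vehicle and 71.9, 58.1 and 61.5 FPKM with ILA, and was 1.20-fold lower (limma adjusted p = 0.015). That call was lost without vehicle replicate 3 (limma adjusted p = 0.064) or ILA replicate 2 (0.064). The receptor itself, Ahr, rose from 3.48 to 5.32 FPKM and its partner Arnt from 7.97 to 11.2 FPKM, while the receptor's cytosolic chaperone Hsp90ab1 fell from 1071 to 865 FPKM. Nqo1, a quinone reductase, did not pass the test at 0.974 against 1.61 FPKM. In the whole list, 6 of 10 measured genes were higher and 3 lower.

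The promoters of these 4 responding or feedback genes are shown because each holds the core of the xenobiotic response element, GCGTG or its reverse complement CACGC, in capitals. The stretches come from RefSeq promoter windows (GRCm38.p6, 250 bases before to 50 after the start), read 5′ to 3′ along the gene.
Cyp1a1, chr9:57697549-57697573, plus strand: agataaggagGCGTGgccaacagac
Cyp1b1, chr17:79715123-79715147, minus strand: tcccgcccctCACGCcccaccccct
Tiparp, chr3:65528267-65528291, plus strand: ccgtccggagCACGCgcacgggagg
Ahrr, chr13:74292344-74292448, minus strand: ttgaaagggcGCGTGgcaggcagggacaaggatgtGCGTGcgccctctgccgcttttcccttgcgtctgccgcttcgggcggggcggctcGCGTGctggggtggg
The core lies 54 bases before the start of Cyp1a1, 76 before Cyp1b1 and 170 before Tiparp, and the first of 3 lies 107 before Ahrr. It is a short and common word: on either strand it occurred in 35.2% of the 27025 genes of the RefSeq table and in 56.9% of the 8587 matched members. Only 64.8% of the members matched by symbol, so the shares describe the matched ones. Of the matched genes that rose at least 2-fold, 206 of 420 (49.0%) held it, and of those that fell at least 2-fold, 57 of 125 (45.6%). Within this window the core was no more common among the rising genes than among all matched members. Of the 4 shown, Tiparp holds it and was lower. A longer form, TNGCGTG, was found in the window of Ahrr but not in those of Cyp1a1, Cyp1b1 or Tiparp. It occurred in 9.81% of matched members, in 36 of 420 (8.57%) that rose at least 2-fold and in 8 of 125 (6.4%) that fell so. Sequence farther from the start was not searched, and binding of the receptor was not tested.

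Genes of tryptophan handling moved by less than 2-fold. Wars, which charges tryptophan onto its tRNA, fell from 51.8 to 30.8 FPKM and Slc7a5, a large neutral amino acid transporter that carries tryptophan, from 231 to 186 FPKM. Qprt, a late enzyme of the kynurenine route to NAD, rose from 4.52 to 7.78 FPKM and Slc36a4, a proton-coupled carrier, from 4.59 to 6.66 FPKM. Genes for the entry enzymes of that route, Ido1, Ido2 and Tdo2, did not reach the 1 FPKM needed for the gene set.

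Of the Th17 cytokine genes, 6 of 8 were lower and 1 was higher, with a list median of -0.83 on the log2 scale. Il17a measured 634, 803 and 832 FPKM with vehicle and 153, 173 and 153 FPKM with ILA. No library overlapped, and the fall was 4.70-fold (log2 difference -2.23 ± 0.12 SE, limma adjusted p = 6.4e-08). Il17f, which forms homodimers and heterodimers with the IL-17A protein, measured 564, 652 and 656 FPKM with vehicle and 271, 294 and 272 FPKM with ILA, also without overlap and with a smaller fall of 2.23-fold. Il21, an autocrine cytokine of Th17 cells, fell from 71.2 to 19.8 FPKM (3.47-fold lower). Csf2, the gene for GM-CSF, fell from 32.2 to 14.7 FPKM and Ccl20, the ligand of CCR6, from 25.05 to 16.5 FPKM. The Ccl20 call did not hold without vehicle replicate 2, vehicle replicate 3 or ILA replicate 3 (limma adjusted p = 0.056, 0.081 and 0.063). Il22 went the other way: its libraries measured 1.42, 2.90 and 4.59 FPKM with vehicle and 7.71, 7.38 and 4.44 FPKM with ILA, and it was called higher (limma adjusted p = 0.011) although 1 vehicle library lay above 1 ILA library. In bulk samples fewer cells of a type and less RNA per cell cannot be told apart, which holds for this and every later result.

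The Th17 receptor genes moved in both directions, with 3 of 9 higher and 5 lower, against 34.5% and 24.4% over all genes. The share called higher was thus near that of all genes, and the list median was -0.40. Il23r measured 9.67, 7.68 and 7.15 FPKM with vehicle and 1.60, 1.69 and 2.25 FPKM with ILA, a 3.21-fold fall in the receptor chain that sustains Th17 cells, with the groups well apart. Il1r1, which receives IL-1, fell from 18.8 to 7.39 FPKM (2.37-fold lower) and Ccr6 from 4.80 to 1.88 FPKM. The IL-6 receptor genes rose, Il6ra from 3.42 to 7.91 FPKM (2.02-fold higher) and its signalling chain Il6st from 4.75 to 6.91 FPKM. The TGF-beta receptor chains split, with Tgfbr1 falling from 9.04 to 5.49 FPKM and Tgfbr2 rising from 15.9 to 29.0 FPKM. Il21r stood at 38.6 and 38.9 FPKM and did not pass.

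The Th17 transcription factors were mostly higher, 8 of 12, with 3 lower. The list median was 0.30, and the counts became 6 and 3 after centring. Maf, which encodes c-Maf, measured 9.66, 10.9 and 10.8 FPKM with vehicle and 36.5, 37.8 and 34.1 FPKM with ILA. The ILA libraries stood more than 3 times the vehicle libraries, a rise of 3.24-fold (log2 difference 1.69 ± 0.08 SE, limma adjusted p = 1.2e-08). Stat3 rose from 16.0 to 21.4 FPKM, Hif1a from 84.9 to 104.8 FPKM and Ikzf3, which encodes Aiolos, from 5.02 to 8.59 FPKM. Rora, an orphan nuclear receptor, fell from 23.3 to 12.7 FPKM (1.77-fold lower) and Irf4, an activation-dependent factor, from 291 to 167 FPKM (1.74-fold lower). Batf measured 31.9 and 30.1 FPKM and did not pass.

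**Figure D2:**
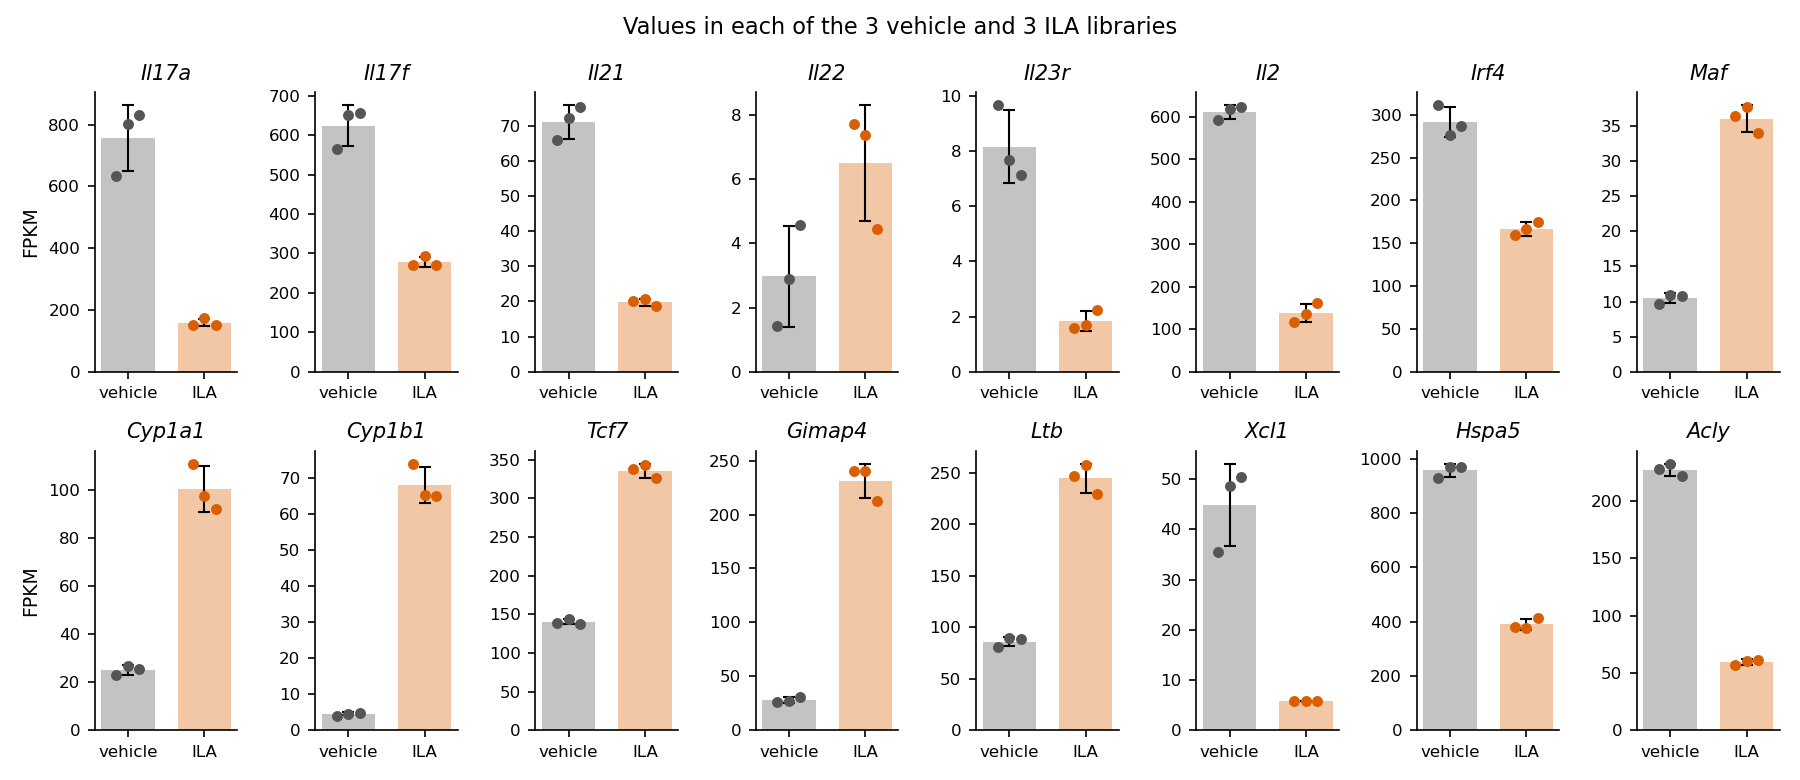
Levels in FPKM on a linear axis for 16 genes; bars are group means, error bars 1 SD and points the 3 libraries of each group. Maf, Tcf7, Cyp1b1 and Gimap4 are higher with ILA, and Il17a, Il17f, Il2 and Acly lower, with no library of 1 group inside the range of the other for these 8 genes.

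Factors of other T cell lineages also moved. Zbtb32, a repressor induced by activation, fell from 44.6 to 5.68 FPKM (6.92-fold lower; log2 difference -2.79 ± 0.11 SE, limma adjusted p = 7.7e-09). Id2 fell from 158 to 91.9 FPKM while its relative Id3 rose from 17.4 to 44.4 FPKM; both proteins block E-protein transcription factors. Runx3, a CD8 and Th1 factor, rose from 6.27 to 17.9 FPKM (2.61-fold higher). Tbx21, Eomes and Prdm1 did not reach the gene set, and Gata3, the Th2 factor, stood at 1.54 and 1.64 FPKM without passing. Foxp3, the regulatory T cell factor, was low in both groups: it measured 1.06, 1.59 and 1.05 FPKM with vehicle and 1.88, 1.58 and 1.58 FPKM with ILA, with overlapping libraries (limma adjusted p = 0.037). Leaving out any of vehicle replicates 1 and 3 and ILA replicates 1 and 2 raised that p to between 0.052 and 0.13, and quantile normalization to 0.47. In a list of genes typical of regulatory T cells 7 of 10 were higher. That count became 6 after quantile normalization, after centring and without ILA replicate 2. Ctla4, an inhibitory receptor, rose from 91.2 to 186 FPKM (2.04-fold higher), Tnfrsf18, which encodes GITR, from 21.4 to 50.8 FPKM, and Izumo1r, which encodes the folate receptor FR4, from 1.88 to 6.97 FPKM. Il2ra, also in that list, fell from 238 to 157 FPKM.

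Factors of resting and memory T cells split evenly, with 6 of 14 higher and 6 lower. Tcf7, which encodes TCF-1, measured 139, 144 and 138 FPKM with vehicle and 338, 343 and 326 FPKM with ILA. Every ILA library stood more than 2 times as high as every vehicle library, with 2.38-fold as the fitted rise (log2 difference 1.25 ± 0.04 SE, limma adjusted p = 2.9e-09). Its partner Lef1 rose from 4.60 to 14.7 FPKM (2.81-fold higher) and the chromatin organizer Satb1 from 19.2 to 38.8 FPKM. Txnip, which restrains glucose uptake, fell from 53.01 to 24.6 FPKM (2.11-fold lower), and Bach2, which restrains effector differentiation, from 102 to 70.4 FPKM. Foxo1 stood at 32.4 and 35.4 FPKM and did not pass.

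Cytokines of acutely activated T cells fell, 7 of 10, and 1 rose. Il2, the main T cell growth factor, measured 592, 619 and 622 FPKM with vehicle and 117, 136 and 161 FPKM with ILA. The vehicle libraries lay far above the ILA libraries, a 4.43-fold fall (log2 difference -2.15 ± 0.12 SE, limma adjusted p = 1.2e-07). Il3 measured 9.97, 12.6 and 18.7 FPKM with vehicle and 0.736, 0.676 and 0.713 FPKM with ILA, so that vehicle libraries varied almost 2 times among themselves and still stood above all ILA libraries (8.38-fold lower). Areg, which encodes the tissue repair factor amphiregulin, fell from 30.8 to 12.5 FPKM. Il16 was the 1 that rose, from 14.3 to 39.2 FPKM (2.62-fold higher).

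Chemokine genes fell together: 5 of 7 were lower, none was higher, and the list median was -1.75 on the log2 scale against 0.07 over all genes. Xcl1, which attracts XCR1-bearing dendritic cells, measured 35.5, 48.6 and 50.5 FPKM with vehicle and 5.84, 5.79 and 5.79 FPKM with ILA. All ILA libraries lay close to each other and far below vehicle (6.66-fold lower). Ccl4 fell from 86.3 to 17.2 FPKM (4.74-fold lower), Ccl3 from 65.0 to 13.7 FPKM (4.49-fold lower) and Ccl5 from 11.8 to 2.79 FPKM (3.37-fold lower); these 3 encode attractants of T cells and myeloid cells. Ccl22 and Cxcl3 lay near 1 FPKM and did not pass. In the killing machinery, 5 of 9 genes were lower and none higher, among them Gzmb, a granzyme, from 7.20 to 2.12 FPKM, and Srgn, the proteoglycan of the granules, from 584 to 337 FPKM (1.73-fold lower).

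The ligands of the TNF family fell in 6 of 9 cases and rose in 2, with a list median of -0.83. Tnfsf14, which encodes LIGHT, measured 50.5, 52.5 and 53.6 FPKM with vehicle and 8.19, 9.87 and 10.2 FPKM with ILA. The fall was 5.12-fold with no overlap (log2 difference -2.36 ± 0.09 SE, limma adjusted p = 4.7e-09). Tnfsf11, which encodes RANKL, fell from 31.3 to 7.81 FPKM, Cd40lg, the helper signal to B cells, from 43.1 to 14.1 FPKM, and Tnfsf4, which encodes OX40L, from 34.9 to 13.3 FPKM. Ltb, a lymphotoxin chain, ran opposite: it measured 80.8, 89.2 and 88.1 FPKM with vehicle and 247, 257 and 229 FPKM with ILA, a 2.82-fold rise. Among the receptors of the family, 6 of 13 were higher and 3 lower, against 34.5% and 24.4% over all genes. Their median was 0.16, and the counts became 5 and 4 after centring. Tnfrsf9, which encodes the activation marker 4-1BB, fell from 30.3 to 14.03 FPKM, while Tnfrsf14, the receptor for LIGHT and lymphotoxin, rose from 12.9 to 29.4 FPKM.

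Genes for the T cell receptor apparatus rose. Of 29 measured, 24 were higher and 1 was lower, with a list median of 0.66 on the log2 scale. Cd4, the coreceptor, measured 41.1, 43.4 and 42.6 FPKM with vehicle and 121, 118 and 111 FPKM with ILA. The groups did not overlap, and the rise was 2.71-fold (log2 difference 1.44 ± 0.04 SE, limma adjusted p = 1.6e-09). Cd3e, a signalling chain of the receptor complex, rose from 19.0 to 37.5 FPKM, Cd3d from 56.7 to 114 FPKM and Cd3g from 18.7 to 40.3 FPKM. Lck, the kinase that starts the cascade, rose from 61.1 to 134 FPKM (2.18-fold higher). Fyb, which encodes the adaptor ADAP, rose from 13.0 to 76.0 FPKM (5.50-fold higher), the adaptor Grap2 from 15.4 to 46.1 FPKM (2.88-fold higher) and Plcg1, the phospholipase that opens the calcium branch, from 11.6 to 29.0 FPKM (2.37-fold higher). The phosphatase Ptpn6, a brake on the same cascade, rose as well, from 13.9 to 40.4 FPKM (2.79-fold higher). The kinase Fyn, from 120.3 to 109 FPKM, was the 1 called lower, though not after quantile normalization (limma adjusted p = 0.058). Among costimulatory receptors Cd2 rose from 52.6 to 139 FPKM (2.61-fold higher) and Cd28 from 74.2 to 96.0 FPKM, and Icos did not pass at 65.8 and 64.2 FPKM.

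All 8 genes of the GIMAP list, which encode small GTPases that support survival of resting lymphocytes, rose, with a list median of 1.45. Gimap4 measured 26.0, 27.5 and 30.9 FPKM with vehicle and 240.4, 240.1 and 213 FPKM with ILA. Its 7.97-fold rise (log2 difference 2.99 ± 0.07 SE, limma adjusted p = 4.9e-10) was the largest in the list. Gimap3 rose from 46.0 to 192 FPKM (4.12-fold higher), and the smallest rise in the list was that of Gimap6, from 47.8 to 90.9 FPKM (1.88-fold higher). The gene set holds 9 entries with a Gimap name, more than the 8 listed, side by side at chr6:48647234-48770851 (GRCm38), a stretch of 124 kb. The listed genes thus share a neighbourhood and are similar in sequence, and their reads may be split between copies.

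The immediate products of receptor signalling did not follow the receptor genes. In the list of induced factors 7 of 15 were lower and 4 higher. The nuclear receptors of the Nr4a family differed among themselves: Nr4a3 measured 92.3, 97.7 and 105.4 FPKM with vehicle and 42.2, 45.1 and 44.2 FPKM with ILA and Nr4a2 fell from 31.0 to 14.8 FPKM, while Nr4a1 measured 194, 229 and 232 FPKM with vehicle and 256, 278 and 245 FPKM with ILA. Nr4a3 lay lower with ILA in every library (2.22-fold lower) and Nr4a1 higher in every library (1.19-fold higher), a call lost without vehicle replicate 1 or ILA replicate 2 (limma adjusted p = 0.077 each) and after centring (0.26). Egr2 fell from 27.7 to 16.8 FPKM, and Egr1, Fos, Jun and Junb did not pass. The inhibitors that MAP kinase signalling induces against itself were lower in 8 of 10 cases. Spry1 fell from 33.1 to 9.14 FPKM (3.42-fold lower), Dusp10 from 21.4 to 7.65 FPKM (2.59-fold lower) and Dusp5 from 261 to 149 FPKM (1.75-fold lower). Dusp6, the phosphatase of ERK in the cytosol, rose from 12.1 to 29.8 FPKM (2.35-fold higher; log2 difference 1.23 ± 0.05 SE, limma adjusted p = 9.1e-09).

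The NF-kB genes were lower in 9 of 13 cases and higher in 2, with a list median of -0.38. Nfkb1, a DNA-binding subunit, measured 185, 186 and 185 FPKM with vehicle and 94.6, 101.1 and 103 FPKM with ILA. The vehicle libraries were tight and stood well above all ILA libraries (1.85-fold lower). Nfkb2 and Rela fell from 156 to 109 and from 145 to 103 FPKM. Of the 8 inhibitor genes in the list, 6 were lower and 1 was higher. Nfkbid fell from 133 to 68.8 FPKM, Nfkbib from 98.0 to 47.8 FPKM and Tnfaip3, which encodes A20, from 165 to 103 FPKM. Relb rose from 39.3 to 49.8 FPKM.

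Receptors for IL-12, IL-18 and interferon gamma rose, although the cytokine they promote did not. Il12rb2 measured 2.14, 2.00 and 1.83 FPKM with vehicle and 14.9, 15.8 and 14.3 FPKM with ILA. It rose 5.35-fold (log2 difference 2.42 ± 0.08 SE, limma adjusted p = 2.3e-09), and 40.0% of its exon bases lie within the exons of a neighbour, Serbp1, on which its counts may depend. Il18r1 measured 5.26, 4.83 and 5.65 FPKM with vehicle and 24.8, 23.2 and 23.9 FPKM with ILA, a 4.003-fold rise with a wide gap between the groups. Il18rap rose from 2.10 to 9.45 FPKM (3.37-fold higher), Stat4, the signal carrier of IL-12, from 3.57 to 7.88 FPKM and Ifngr1 from 9.13 to 22.4 FPKM (2.32-fold higher). Ifng, the Th1 cytokine, measured 6.65, 6.66 and 9.02 FPKM with vehicle and 0.965, 1.07 and 1.08 FPKM with ILA, a 4.11-fold fall. Among receptors of the common gamma chain family, Il2rb fell from 122 to 61.6 FPKM (1.96-fold lower) while Il7r, the receptor of the survival factor IL-7, rose from 29.0 to 47.7 FPKM and Jak3, the kinase bound to the shared chain, from 17.9 to 55.7 FPKM (3.00-fold higher). Of the STAT genes 6 of 7 rose, and Stat5a, from 93.0 to 72.3 FPKM, fell. Socs3, which blocks IL-6 signalling, rose from 8.85 to 22.02 FPKM (2.33-fold higher) and Cish, a target of STAT5, fell from 19.4 to 12.3 FPKM (1.54-fold lower).

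In the TGF-beta pathway, 8 of 14 genes were higher and 3 lower, which became 6 and 3 after centring. Smad3, a signal carrier, rose from 13.99 to 28.4 FPKM (1.96-fold higher), the coreceptor Tgfbr3 from 1.05 to 3.84 FPKM and Lrrc32, which displays latent TGF-beta on the surface, from 0.339 to 2.38 FPKM. Itgav, an integrin chain that releases active TGF-beta, fell from 36.6 to 14.7 FPKM (2.39-fold lower).

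Inhibitory receptors moved in both directions, 6 higher and 4 lower of 12, and 5 each after centring. Lag3 rose from 22.1 to 57.5 FPKM (2.54-fold higher) and Cd96 from 5.42 to 19.3 FPKM (3.15-fold higher), whereas Havcr2, which encodes TIM-3, fell from 5.82 to 1.03 FPKM (3.38-fold lower) and Cd200 from 42.6 to 19.8 FPKM (2.10-fold lower). Pdcd1, which encodes PD-1, stood at 7.20 and 6.13 FPKM (limma adjusted p = 0.024), a difference that did not pass without vehicle replicate 1, vehicle replicate 2 or ILA replicate 3 (limma adjusted p = 0.055, 0.063 and 0.098).

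Of the genes that steer cells through tissue, 9 of 16 receptors were higher and 4 lower, with a median of 0.45. Gpr15, a receptor for homing to the colon, measured 33.7, 33.2 and 32.2 FPKM with vehicle and 79.8, 75.7 and 74.0 FPKM with ILA. Every ILA library stood above every vehicle library (2.28-fold higher; log2 difference 1.19 ± 0.05 SE, limma adjusted p = 1.2e-08). Genes of the gut-homing integrins rose with it: Itgb7, the chain shared by both, from 32.6 to 73.8 FPKM (2.23-fold higher), its partner Itga4 from 0.633 to 2.49 FPKM and its other partner Itgae, which binds E-cadherin, from 2.98 to 7.03 FPKM. S1pr1, the exit receptor of lymph nodes, rose from 4.13 to 10.6 FPKM and Selplg, which encodes a ligand of P-selectin, from 20.7 to 48.1 FPKM. Cxcr3, a Th1 receptor, measured 4.69, 4.76 and 4.15 FPKM with vehicle and 0.321, 0.123 and 0.259 FPKM with ILA, a 4.49-fold fall. Among integrins in all, 7 of 10 were higher and 3 lower.

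The genes of the secretory pathway fell as a group. Of 91 measured, 81 were lower and 4 higher, against 24.4% and 34.5% over all genes, and the list median was -0.54. The counts were 79 lower and 3 higher after quantile normalization, 84 and 1 after centring, and 78 and 4 without ILA replicate 2. The depth of the fall followed role. All 12 chaperones fell, with a median of -1.18. Hspa5, which encodes the master chaperone BiP, measured 929.5, 972 and 972 FPKM with vehicle and 380.0, 378 and 412 FPKM with ILA. Both groups were tight and lay far apart (2.45-fold lower; log2 difference -1.29 ± 0.05 SE, limma adjusted p = 3.0e-09). Hyou1, a nucleotide exchange factor for BiP, fell from 126 to 44.2 FPKM (2.82-fold lower), Dnajb9, a BiP cochaperone, from 59.2 to 17.8 FPKM (3.19-fold lower) and Manf, a small secreted stress protein, from 123 to 43.9 FPKM (2.77-fold lower). Calr, which binds glycoproteins, fell less, from 419 to 282 FPKM (1.48-fold lower).

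The 6 disulfide enzymes all fell, with a median of -0.92, led by Pdia6 from 219 to 98.5 FPKM (2.21-fold lower). Among genes of ER-associated degradation, 8 of 11 fell, the ubiquitin ligase Syvn1 from 69.4 to 32.3 FPKM (2.12-fold lower) and Derl3, a channel protein, from 7.26 to 1.06 FPKM (4.005-fold lower), while the lectin Os9 rose from 40.7 to 59.7 FPKM. Steps up and down stream moved less: 16 of 18 genes of translocation, 14 of 16 of N-glycosylation and 19 of 21 of vesicle transport were lower, with medians of -0.45, -0.31 and -0.50. Of the 7 stress sensors and factors 6 were lower, with the median nearest to 0, -0.27. Ppp1r15a, which encodes the phosphatase subunit GADD34, fell most among them, from 144 to 70.4 FPKM (2.03-fold lower). Xbp1 fell from 141 to 116 FPKM (1.22-fold lower), Atf6 from 28.3 to 23.7 FPKM (1.19-fold lower) and Ern1, which encodes the sensor IRE1, stood at 15.1 and 15.6 FPKM and did not pass.

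**Figure D3:**
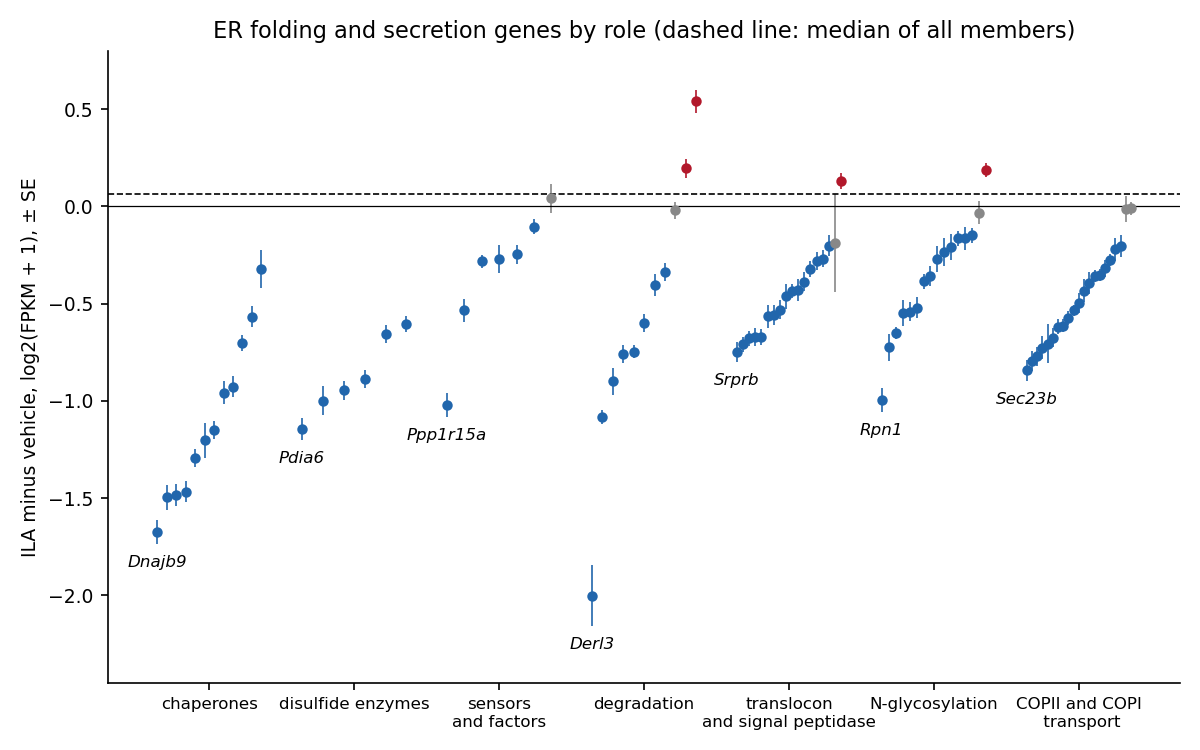
Each point is a gene of the secretory pathway, grouped by role, with the difference ILA minus vehicle (log2) on the y axis; vertical bars are 1 SE, blue, red and grey mark genes called lower, called higher and not passed, and the dashed line is the median of all members. By their medians chaperones and disulfide enzymes lie lowest, with medians of -1.18 and -0.92, and sensors nearest 0. The gene with the largest fall in each role is labelled.

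The ER stress element is shown for these genes because it was rare elsewhere. It was searched as CCAAT and CCACG with 9 bases between, on either strand, and its CCACG followed by C overlaps the reverse complement of the xenobiotic core. Capitals mark both parts, which read CGTGG and ATTGG where the element lies on the other strand.
Hspa5, chr2:34772015-34772053, plus strand: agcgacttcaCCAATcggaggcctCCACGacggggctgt
Creld2, chr15:88819510-88819548, plus strand: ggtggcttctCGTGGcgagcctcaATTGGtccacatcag
Pdia6, chr12:17266481-17266519, plus strand: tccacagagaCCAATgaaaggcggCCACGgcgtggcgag
Dnajc3, chr14:118937817-118937855, plus strand: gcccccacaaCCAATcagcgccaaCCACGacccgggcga
Canx, chr11:50325790-50325828, minus strand: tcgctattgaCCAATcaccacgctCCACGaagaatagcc
Calr, chr8:84847065-84847103, minus strand: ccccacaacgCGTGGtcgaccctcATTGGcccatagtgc
Syvn1, chr19:6046522-6046560, plus strand: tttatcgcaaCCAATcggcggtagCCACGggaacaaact
Derl3, chr10:75893232-75893270, plus strand: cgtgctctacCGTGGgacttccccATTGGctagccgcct
Pan2, chr10:128303277-128303315, plus strand: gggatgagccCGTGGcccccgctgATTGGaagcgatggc
It occurred in 37 of 27025 RefSeq promoters (0.137%) and in 16 of the 8587 matched members. Of these 16, 10 were lower with ILA, 2 were higher and 4 did not pass, and 9 belong to the secretory list. It occurred in 6 of the 9 matched ER chaperones. It was also in 6 of the 125 matched genes that fell at least 2-fold (4.8%) and in 0 of 420 that rose at least 2-fold. The 6 that fell so were Derl3, Creld2, Hspa5, Hsp90b1, Pdia6 and Syvn1. All belong to the secretory list, so this count restates the fall of that list. Only 0.186% of matched members hold the element, so 0 of 420 cannot show that rising genes lack it. Hsp90b1, which encodes the chaperone GRP94 and fell from 287 to 129 FPKM, holds the element 2 times. Pan2, a deadenylase subunit, holds it and rose from 10.1 to 20.4 FPKM (1.93-fold higher), and Alg12 shares the element that lies between it and Creld2. Sdf2l1 fell from 110.3 to 47.5 FPKM (2.30-fold lower) with no match in its window. A match is a description of the letters and not a measured binding site.

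Genes of the ATF4 response were lower in 26 of 35 cases and higher in 3. Those for making amino acids and carbon units fell most evenly, 12 of 13. Cth, which makes cysteine from cystathionine, measured 21.2, 23.1 and 21.9 FPKM with vehicle and 2.83, 2.63 and 3.82 FPKM with ILA. No library overlapped (5.67-fold lower; log2 difference -2.50 ± 0.11 SE, limma adjusted p = 1.5e-08). Psat1, of serine synthesis, fell from 91.4 to 48.0 FPKM and Shmt1, of the folate cycle, from 15.9 to 8.36 FPKM. The transporters fell in 8 of 10 cases, Slc7a3, for cationic amino acids, from 12.9 to 3.08 FPKM (3.42-fold lower) and Slc1a5, for glutamine, from 251 to 119 FPKM (2.10-fold lower). Atf4 itself fell from 505 to 402 FPKM (1.26-fold lower), which did not pass after quantile normalization (limma adjusted p = 0.087), and Atf3 from 17.5 to 9.91 FPKM (1.70-fold lower). Trib3, often used as a marker of ATF4 activity, stood at 87.5 and 89.1 FPKM and did not pass, and Ddit4, an inhibitor of mTORC1, rose from 88.1 to 155 FPKM (1.75-fold higher).

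The genes for tRNA synthetases, which load amino acids onto tRNAs, differed by compartment. Of the cytosolic ones 17 of 20 were lower, with a median of -0.35. Gars, for glycine, fell from 217 to 148 FPKM and Rars, for arginine, from 45.5 to 31.0 FPKM. Of the mitochondrial ones 1 of 17 was lower and 6 higher, which turned to 3 lower and 2 higher after quantile normalization. The ATF4 composite element, searched as TGATGNAA, is shown for 7 of the 8 members of the ATF4 and synthetase lists that hold it within the 250 bases before the start.
Atf3, chr1:191183426-191183453, minus strand: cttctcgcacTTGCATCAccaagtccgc
Chac1, chr2:119351039-119351066, plus strand: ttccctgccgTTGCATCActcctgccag
Pycr1, chr11:120643834-120643861, minus strand: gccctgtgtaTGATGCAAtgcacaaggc
Asns, chr6:7693215-7693242, minus strand: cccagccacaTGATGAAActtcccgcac
Gars, chr6:55037961-55037988, plus strand: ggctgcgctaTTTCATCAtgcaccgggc
Tars, chr15:11399659-11399683, minus strand: aggagtcccgTTGCATCAgctggtt
Nupr1, chr7:126625563-126625590, minus strand: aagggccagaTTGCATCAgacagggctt
It occurred in 4.51% of all RefSeq promoters and in 2.73% of matched members. In the ATF4 list it was held by 4 of 11 factors and effectors, 2 of 11 genes of synthesis and 1 of 6 transporters, and 5 of 12 matched cytosolic synthetases and 0 of 14 mitochondrial ones held it. These counts cover the whole window, and 4 of these holders have it only across or after the start: Iars and Yars, with log2 differences of -0.29 and -0.17, and Trib3 and Slc1a4, which did not pass. Nupr1, shown above, did not pass either. Chac1, which degrades glutathione, fell from 51.8 to 32.3 FPKM, Pycr1, of proline synthesis, from 5.71 to 3.11 FPKM, Asns, the asparagine synthetase, from 104 to 77.7 FPKM and Tars, for threonine, from 70.3 to 50.9 FPKM.

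Genes for building ribosomes fell, while those of the ribosome's own proteins did not move one way. Of 35 nucleolar genes 34 were lower, with a median of -0.57. Ncl, which encodes nucleolin, measured 153, 148 and 154 FPKM with vehicle and 89.2, 96.1 and 92.7 FPKM with ILA. All ILA libraries lay well under all vehicle libraries (1.63-fold lower). Utp20, of the small subunit processome, fell from 20.7 to 9.68 FPKM (2.03-fold lower) and Dkc1, which modifies ribosomal RNA, from 39.5 to 21.2 FPKM (1.83-fold lower). Ubtf, the polymerase I factor, rose from 32.6 to 37.7 FPKM, a call lost after centring (limma adjusted p = 0.13). Myc, a known driver of such genes, fell from 126 to 98.2 FPKM (1.28-fold lower) and its partner Max from 66.1 to 49.0 FPKM. Srm, of polyamine synthesis and a known Myc target, fell from 137 to 72.2 FPKM (1.90-fold lower). Of 80 ribosomal protein genes 17 were lower and 6 higher, and the sign turned with scaling, to 13 lower and 29 higher after quantile normalization.

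Standard proteasome genes fell while the inducible subunits rose. Of 31 standard subunits 26 were lower and none higher, with a median of -0.33. Psmb6, a catalytic subunit of the standard particle, measured 59.3, 65.6 and 68.8 FPKM with vehicle and 46.3, 44.3 and 46.4 FPKM with ILA. Psmb9, which takes its place in the immunoproteasome, measured 2.05, 2.22 and 2.16 FPKM with vehicle and 6.19, 7.38 and 7.64 FPKM with ILA. The first lay lower in every ILA library (1.40-fold lower) and the second higher in every ILA library (2.56-fold higher). The other inducible subunits, Psmb8 and Psmb10, rose from 10.9 to 23.8 and from 5.40 to 16.3 FPKM. Tap1, of the peptide transporter for MHC class I, rose from 6.56 to 14.9 FPKM (2.11-fold higher), Tap2 from 18.3 to 37.8 FPKM and Tapbp, which encodes tapasin, from 23.5 to 54.6 FPKM. The class I heavy chain H2-K1 stood at 239 and 242 FPKM and did not pass. The whole list of class I presentation had 10 higher and 3 lower of 20, with a largest fall of -0.89 on the log2 scale. Its median of 0.10 turned to -0.04 after centring, with 7 higher and 4 lower.

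Genes induced by interferons were higher in 15 of 21 cases and lower in 2, with a list median of 0.50. Gbp2, a guanylate-binding protein, rose from 7.88 to 24.98 FPKM (2.94-fold higher), Samhd1, which degrades nucleotides, from 6.81 to 17.6 FPKM (2.39-fold higher) and Stat2 from 3.44 to 6.79 FPKM. Ifi203, a DNA-binding family member with near copies, fell from 12.9 to 4.38 FPKM (2.58-fold lower) and Ifit3 from 3.88 to 1.07 FPKM (2.35-fold lower). Isg15 and Irf9 did not pass. In the lysosome and autophagy list Ctsa, a carboxypeptidase, rose from 7.82 to 23.3 FPKM (2.76-fold higher) and Gaa, which breaks down glycogen, from 4.55 to 11.8 FPKM, whereas the autophagy receptor Sqstm1 fell from 143 to 89.3 FPKM (1.59-fold lower). The whole list stood at 15 higher and 10 lower of 32, which turned to 12 and 15 after centring.

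The fatty acid list had no common direction, 9 higher and 6 lower of 19, and turned to 8 and 9 after centring. Its largest change was that of Acly, which makes cytosolic acetyl-CoA from citrate. It measured 228, 232 and 222 FPKM with vehicle and 57.0, 60.1 and 61.5 FPKM with ILA. The groups were tight and far apart (3.77-fold lower; log2 difference -1.91 ± 0.04 SE, limma adjusted p = 2.6e-10). Fasn and Acaca, which use its product to build fatty acids, fell less, from 54.9 to 44.2 and from 4.88 to 3.49 FPKM. Genes that rose included Scd2, a desaturase, from 6.80 to 20.7 FPKM (2.80-fold higher), Elovl6, an elongase, from 1.30 to 3.83 FPKM, Cpt1a, the gate of mitochondrial oxidation, from 4.48 to 10.9 FPKM (2.18-fold higher) and Acadl, of the same route, from 15.6 to 37.0 FPKM. Outside that list Dgat1, which makes triglyceride, rose from 14.2 to 58.0 FPKM (3.87-fold higher). Srebf2, a regulator of cholesterol synthesis, rose from 35.7 to 56.7 FPKM. The sterol enzymes stood at 12 higher and 1 lower of 20, a balance that shrank to 7 and 3 after quantile normalization.

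Glycolysis had no common direction, 10 higher and 7 lower of 19, and 7 each after centring. Gpi1 rose from 49.3 to 86.0 FPKM and Ldha, which makes lactate, from 171 to 212 FPKM, while Pgk1 fell from 459.6 to 308 FPKM and Hk2, the entry kinase, from 32.3 to 23.8 FPKM. Ndrg1, a hypoxia-responsive gene, fell from 210.1 to 72.9 FPKM (2.85-fold lower; log2 difference -1.51 ± 0.05 SE, limma adjusted p = 2.9e-09), and Hif1a, named above, rose. The respiratory chain showed 12 higher and 18 lower of 68, which became 5 and 35 after centring.

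The antioxidant list stood at 9 higher and 8 lower of 23, which turned to 7 and 8 after centring. In it Srxn1, which repairs peroxiredoxins, fell from 25.5 to 6.90 FPKM (3.36-fold lower) and Hmox1, which degrades heme, from 21.8 to 10.1 FPKM (2.07-fold lower), while Cat, which encodes catalase, rose from 8.01 to 17.1 FPKM (2.02-fold higher) and Gpx4, which guards lipids from oxidation, from 22.6 to 41.2 FPKM (1.80-fold higher). The heat shock genes were mostly lower, 11 of 17, among them Hsp90aa1 from 246 to 131 FPKM (1.88-fold lower) and the mitochondrial chaperone Hspa9 from 210.3 to 122 FPKM (1.72-fold lower). The near-identical stress-induced pair went the other way, Hspa1a from 2.57 to 9.69 FPKM and Hspa1b from 4.06 to 15.6 FPKM, and reads may be split between them.

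Genes of cell division changed little in comparison. The mitosis list held 13 higher and 0 lower genes of 28, which became 7 and 3 after quantile normalization. Mki67, the proliferation marker, measured 15.2, 13.7 and 13.2 FPKM with vehicle and 18.8, 19.97 and 19.0 FPKM with ILA. The groups did not overlap (1.35-fold higher), and Cenpa, the centromeric histone, rose from 6.04 to 12.3 FPKM (1.89-fold higher). The replication list was divided, 16 higher and 13 lower of 51, and turned to 7 and 17 after quantile normalization. Within it Ccne2, a cyclin of entry to S phase, fell from 5.57 to 2.23 FPKM (2.04-fold lower) and Rb1, which blocks that entry, rose from 10.1 to 22.9 FPKM (2.16-fold higher). Of the death-promoting BCL2 family 7 of 8 genes were higher. Bmf measured 1.10, 1.08 and 1.08 FPKM with vehicle and 6.24, 6.21 and 6.60 FPKM with ILA, a 3.52-fold rise with the groups far apart, and Bcl2l11, which encodes BIM, rose from 10.3 to 21.6 FPKM (2.00-fold higher). On the survival side Bcl2 rose from 8.82 to 11.3 FPKM and Bcl2a1d, which has near-identical copies, fell from 62.9 to 37.9 FPKM. The p53 target Cdkn1a, which encodes p21, fell from 79.6 to 44.6 FPKM (1.76-fold lower). Nt5e, which encodes CD73 and makes adenosine, measured 28.2, 25.7 and 27.0 FPKM with vehicle and 90.6, 94.7 and 90.0 FPKM with ILA, a 3.32-fold rise (log2 difference 1.73 ± 0.05 SE, limma adjusted p = 7.2e-10). In the clock list, with 7 higher and 6 lower of 16 that turned to 5 and 7 after quantile normalization, Dbp rose from 0.748 to 2.96 FPKM and Arntl, which encodes BMAL1, fell from 9.79 to 6.73 FPKM.

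**Figure D4:**
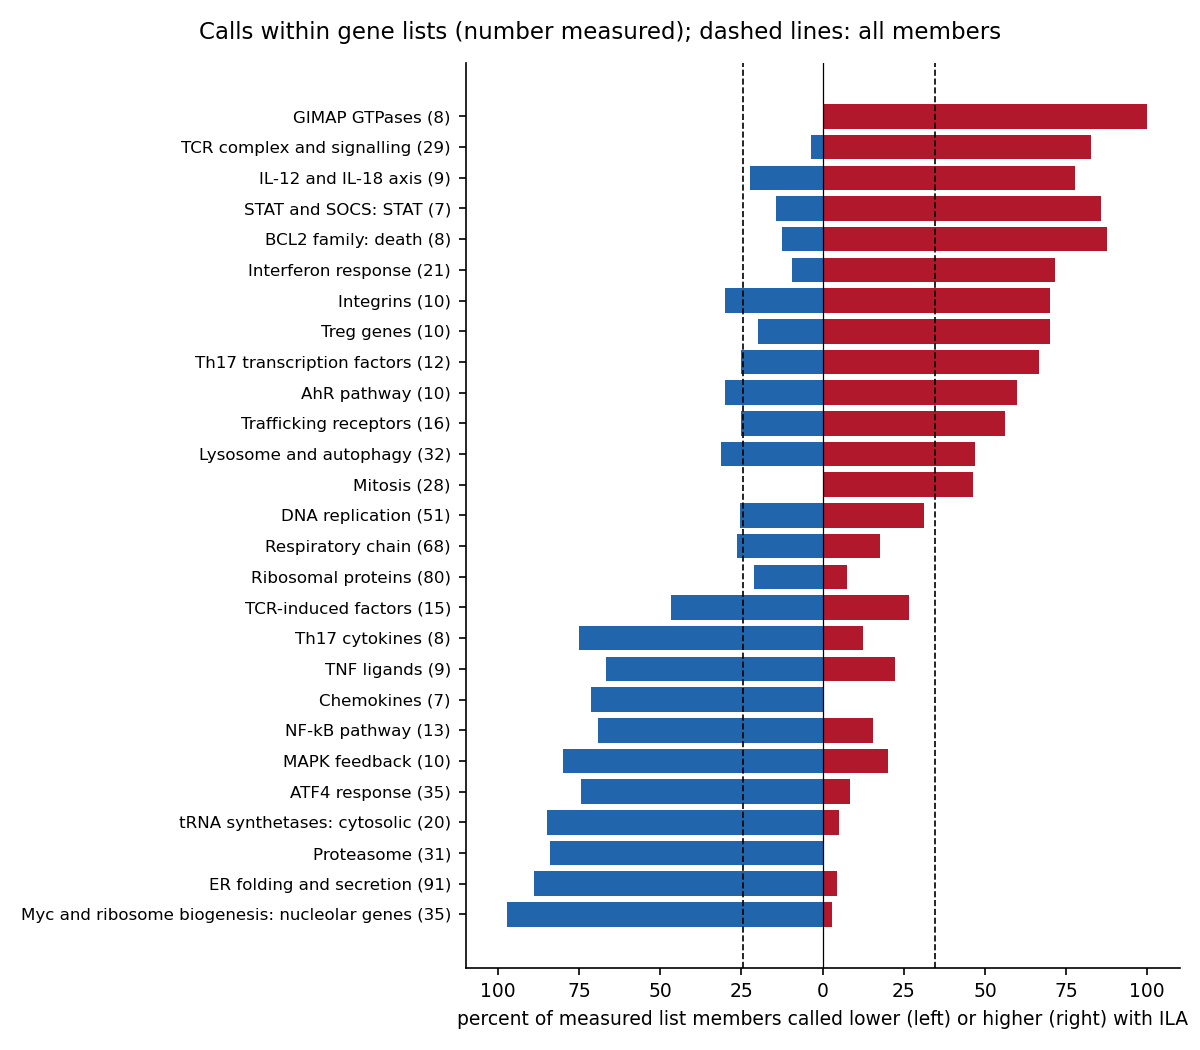
Share of the measured genes of each list called higher (right) and lower (left) with ILA, in percent, with the number measured beside the name and dashed lines for all members. ER folding, nucleolar and proteasome genes lean lower and GIMAP and T cell receptor genes higher under every scaling tried, whereas the balance of the DNA replication, ribosomal protein and lysosome lists turned with scaling and that of the mitosis and respiratory chain lists moved by over 1.5 times.

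Outside the lists, the largest rises among genes of at least 5 FPKM began with Asb2, a ubiquitin ligase subunit that targets filamins. It measured 3.41, 4.54 and 4.50 FPKM with vehicle and 54.7, 60.1 and 59.7 FPKM with ILA. Every ILA library was more than 10 times the vehicle libraries (11.5-fold higher; log2 difference 3.53 ± 0.09 SE, limma adjusted p = 4.9e-10). Npas4, a transcription factor known from neurons, rose from 0.316 to 8.89 FPKM (7.46-fold higher), Treml2, a receptor of the TREM family, from 8.45 to 48.9 FPKM (5.28-fold higher) and Cnn2, an actin-binding calponin, from 29.3 to 155 FPKM (5.16-fold higher). Hic1, a repressor found in intestinal T cells, rose from 4.97 to 29.1 FPKM (5.15-fold higher) and H1f0, a linker histone of resting cells, from 10.5 to 42.6 FPKM (3.81-fold higher).

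The largest falls outside the lists began with a mast cell protease gene, Mcpt1, which measured 11.5, 9.08 and 8.70 FPKM with vehicle and 1.37, 0.262 and 1.33 FPKM with ILA. The gap was wide (5.61-fold lower), and Mcpt2, a near copy, fell from 7.12 to 1.03 FPKM, so that their reads may be shared. Mmp10, a secreted matrix protease, measured 741, 886 and 879 FPKM with vehicle and 235, 243 and 245 FPKM with ILA. It was among the most abundant transcripts to fall (3.44-fold lower; log2 difference -1.78 ± 0.06 SE, limma adjusted p = 2.7e-09). Several other genes in this set encode secreted proteins: Inhba, an activin chain, fell from 68.2 to 15.4 FPKM (4.22-fold lower), Spp1, which encodes osteopontin, from 19.5 to 3.73 FPKM (4.29-fold lower) and Timp1, a protease inhibitor, from 22.7 to 5.65 FPKM (3.50-fold lower). Perp, a membrane protein of cell junctions, fell from 51.5 to 9.60 FPKM (4.95-fold lower), Plek, a substrate of protein kinase C, from 22.7 to 4.50 FPKM (4.35-fold lower) and Rgs16, a brake on G protein signalling, from 55.9 to 16.4 FPKM (3.27-fold lower).

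The same ILA contrast was available with GSK805 in all 6 libraries, sharing no library with the first. Both contrasts come from the same fit and share its estimate of spread for each gene. A gene of small spread is thus more readily called in both, which can raise the shares below above those of all genes. Of the 4568 genes higher with ILA alone, 2666 (58.4%) were again higher, against 22.2% of all genes, and of the 3235 lower genes 1962 (60.6%) were again lower, against 17.7%. The opposite call was made for 37 and 9 genes. Of genes changed at least 2-fold, 636 of 712 higher and 174 of 228 lower ones were called the same way. Across the 13256 genes, which share their libraries and are not independent, the 2 sets of differences had a Pearson r of 0.801 and a Spearman rho of 0.786, given as a description. The size of the effect did differ for 1866 genes (14.1%) by the interaction test: 695 had a higher and 1171 a lower value with GSK805. That split became 719 and 843 after quantile normalization and turned to 1288 and 746 after centring, and the count fell to 1192 without replicate 3 of both agents, 1205 without GSK805 replicate 1 and 1229 without vehicle replicate 3. In 1726 of the 1866 the ILA effect was called and larger without GSK805, and in 1563 both effects had the same sign.

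Nt5e showed the smaller effect most plainly, from 27.0 to 91.8 FPKM with vehicle and ILA but from 42.3 to 73.6 FPKM with GSK805 and both agents (difference of effects -0.95 ± 0.06 SE, limma adjusted p = 8.6e-05). Xcl1 fell from 44.9 to 5.81 FPKM without and from 25.4 to 9.68 FPKM with the inhibitor (difference 1.42 ± 0.18 SE, limma adjusted p = 0.0013). Hspa5 showed log2 differences of -1.29 without and -0.62 with GSK805 (limma adjusted p = 4.3e-04 for the difference), and Acly -1.91 and -1.03 (limma adjusted p = 8.6e-05). Both remained lower with ILA in the presence of the inhibitor, by less. Il23r stood at 0.751 FPKM with GSK805 alone, where a fall of any size is small on the log2(FPKM + 1) scale. Mki67 rose by 0.43 without GSK805 and differed by -0.50 with it, and 20 of 28 mitosis genes differed between the 2 settings. Differences of effects for single genes and lists were not checked under other scalings. Cyp1b1 rose by 3.65 and 3.12, Tiparp showed -0.26 and 0.08 (limma adjusted p = 0.065 for the difference, which did not pass), and Il12rb2 showed 2.42 and 2.13, also without passing (limma adjusted p = 0.11).

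**Figure D5:**
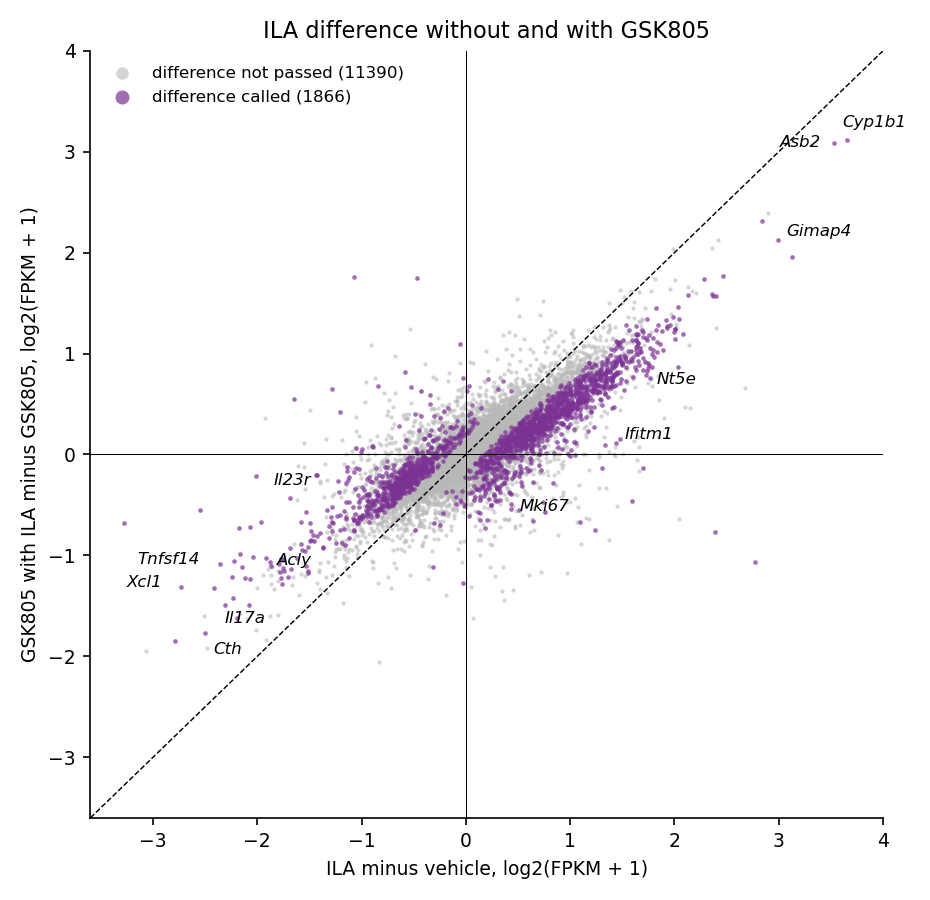
Each point is a gene, with the ILA effect without GSK805 (log2) on the x axis and with GSK805 on the y axis; colour marks the genes whose effects differ by the interaction test, and the diagonal marks equal effects. Most of the marked genes lie between the diagonal and 0 on the y axis, and Mki67 lies on opposite sides of 0 on the 2 axes.

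The deposited values do not state whether strand was used in counting, so reads in overlapping exons cannot be assigned with certainty. Among the genes named, Il12rb2, Stat4, Tapbp, Tnfrsf18, Dusp5, Spry1 and Ifng share at least 20% of their exon bases with 1 other gene. Foxp3, low in both groups, overlaps several: it shares 18.6% with Flicr, 12.9% with Ccdc22, 8.15% with Gm36995 and 5.81% with Ppp1r3f.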

How the data were processed

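RNA-seq libraries were made from 12 cultures, 3 in each group. The authors deposited 1 table of FPKM per library, listing 29522 genes, of which 28807 carry a symbol. Per the submitters' processing notes, FastQC 0.11.2, Bowtie and the mouse build mm10 were used; the counting program, annotation, filters and use of strand were not given in the sources used here. FPKM values multiplied by exon length (GENCODE vM21) gave whole reads, within 0.1, for 98.7% to 98.8% of values, at 17842287 to 23493271 reads a library.

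Groups follow the labels. Differences were tested with limma 3.58.1 (R 4.3.3, trend and robust moderation) on log2(FPKM + 1), with 1 mean per group over all 12 libraries, so that the 4 groups share 1 estimate of the spread. Genes whose mean reached 1 FPKM in any group entered, and an adjusted p (Benjamini-Hochberg over all genes tested) under 0.05 was called. FPKM keeps a scale per library and cannot show a change in total RNA. The contrast of both agents against GSK805, minus that of ILA against vehicle, tested whether the effects differed. The fit was tested on simulated data. Tables and figures were made with Python 3.11.15, numpy 2.4.6, pandas 2.3.3 and matplotlib 3.10.9. Promoters of matched symbols were searched in the RefSeq table (GRCm38.p6).

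Alternatives changed the scaling, filter, pseudocount (0.1), moderation and libraries, and added a replicate block. The voom fit to recovered reads, and the list counts under other scalings and without ILA replicate 2, were added after seeing the data. The members and gene lists were chosen with earlier results of these data known. Named genes come from the lists, from the 15 largest rises and falls of at least 5 FPKM outside them and from the 6 largest differences of effects in each direction. Promoter stretches other than those of Cyp1a1, Cyp1b1, Tiparp, Hspa5 and Asns were chosen after values were seen. A few genes of the lists are counted with them but not reported singly here.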

Additional observations from a re-analysis of the deposited data

Results flagged for a closer look

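The effect of ILA with GSK805 differed from the effect without it for 1866 genes by the interaction test in limma. The 12 genes below had the largest such differences among genes of at least 5 FPKM, 6 in each direction, with limma adjusted p from 8.6e-05 to 0.020. Their differences of effects were not checked under other scalings. For 6 genes the value with GSK805 was the higher: Xcl1 by 1.42 on the log2 scale, Tnfsf14 by 1.27, Il23r by 1.25, Ccl3 by 1.18, Slamf7 by 1.17 and Ccl4 by 1.03. All 6 were also lower with both agents than with GSK805 alone, by a smaller difference. Tnfsf14 went from 47.3 to 21.8 FPKM with GSK805 and then both agents, Ccl3 from 40.8 to 20.4 FPKM and Ccl4 from 58.3 to 24.7 FPKM. Slamf7, an adhesion receptor of activated lymphocytes, fell from 9.31 to 1.23 FPKM without the inhibitor and from 6.25 to 2.49 FPKM with it.

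For the other 6 genes the value with GSK805 was the lower: Ifitm1 with -1.33, Hivep3 with -1.01, Rab29 with -0.97, Nt5e with -0.95, Mki67 with -0.93 and Sntb1 with -0.92. Ifitm1, an interferon-induced membrane protein, rose from 3.10 to 9.73 FPKM without GSK805 and stood at 1.80 and 2.02 FPKM with GSK805 and with both agents. Rab29, a small GTPase, likewise rose from 2.53 to 6.12 FPKM and stood at 4.29 and 4.37 FPKM. Hivep3, a zinc finger protein, rose from 14.6 to 51.9 FPKM without and from 28.6 to 49.1 FPKM with the inhibitor, and Sntb1, a syntrophin, from 1.64 to 8.09 and from 2.01 to 4.51 FPKM.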

How the results depend on the processing

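Of the counts for all genes, the 4568 higher and 3235 lower calls stayed within 1.5 times under every alternative, but their balance moved with scaling. It was 3587 higher and 4153 lower after quantile normalization and 3265 and 4707 after centring. Of the 7803 calls, 6647 and 6500 were made again in the same direction under these, and none in the other direction. Other filters, pseudocounts and moderation gave 3129 to 4577 higher and 2798 to 3244 lower, the lowest with the filter at 5 FPKM, which leaves 8767 genes. Leaving out 1 ILA or vehicle library gave 4144 to 4343 higher and 2957 to 3043 lower. The voom fit to recovered reads, chosen after seeing the data, gave 4666 and 3296 of 13070 genes. The number of genes whose effect differed with GSK805, 1866, fell to 1014 with no filter, where more genes share the correction, and ranged from 1192 to 1965 when 1 library was left out. Of the 237 named genes called, 229 kept call and direction in every alternative that tested them, 15 or 16 a gene, and the 8 others are Ccl20, Foxp3, Tiparp, Pdcd1, Nr4a1, Atf4, Fyn and Ubtf, which kept their direction. The labels do not say whether replicate numbers pair the samples, and they were treated as unpaired. Deviations of same-numbered ILA and vehicle libraries from their group means had r of 0.017, 0.004 and -0.032. Such values cannot exclude a shared mouse, day or batch. A fit with the replicate block called 4534 higher and 3242 lower, and 1973 for the difference. At 17842287 to 22164720 reads a library, 1 read on 1 kb of exon equals 0.0451 to 0.056 FPKM, so differences below about 1 FPKM rest on few reads.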
